A study of Homo sapiens with 6 samples.

Results

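The HOX-cluster miRNAs are the mature products of the miR-10, miR-196 and miR-615 hairpins, whose genes lie inside the 4 clusters of HOX homeobox genes. They were chosen by name as 8 human mature miRNAs, hsa-miR-10a-5p, hsa-miR-10a-3p, hsa-miR-10b-5p, hsa-miR-10b-3p, hsa-miR-196a-5p, hsa-miR-196b-5p, hsa-miR-196b-3p and hsa-miR-615-3p, written below without the species prefix. Of these 8, 7 had a row among the 1582 miRNAs of the count table, and miR-196b-3p was not analysed here. An expression filter left 506 miRNAs for testing, among them 4 of the 8 (miR-10a-5p, miR-10a-3p, miR-10b-5p and miR-615-3p). The libraries were made from small RNA of MDA-MB-231, a human breast cancer line without estrogen and progesterone receptors or HER2 amplification that serves as a model of triple-negative breast cancer (TNBC). There were 3 libraries of non-transfected cells (control) and 3 of cells overexpressing RARαS77A, a retinoic acid receptor alpha in which alanine replaces a serine that is phosphorylated in the normal receptor. The series describes delivery of RARαS77A by lentivirus, and no library of an empty vector or of wild-type RARα was analysed here, so the effect of the mutant receptor and that of its delivery cannot be told apart. No source used here tells if the 3 libraries of a group came from separate cultures, so the p-values measure only the spread between these libraries.

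HOX genes set positional identity along the body axis, and retinoic acid is one of the classical signals that switch them on in order along each cluster. Retinoic acid receptors do this as ligand-bound transcription factors on response elements within the clusters, and miRNA genes embedded between the HOX genes are often transcribed with their neighbours. A hairpin precursor is cut into a duplex of a 5p and a 3p arm. Usually one arm, the guide strand, is kept in the Argonaute protein, while the other, the passenger strand, is degraded. The seed, bases 2 to 8 from the 5′ end, is the main determinant of which mRNAs a miRNA represses. miR-10b is best known in breast cancer for promoting invasion, miR-10a and miR-196 repress HOX mRNAs, and miR-196b is a hallmark of HOXA-driven leukaemias.

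The mature sequences below are from RefSeq (GRCh38.p14), which held 7 of the 8 chosen miRNAs (all but miR-10b-5p), and are shown 5′ to 3′ with the seed in capitals because the members are grouped by arm and by seed.
miR-10a-5p: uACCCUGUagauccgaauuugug
miR-10a-3p: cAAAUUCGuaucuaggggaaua
miR-10b-3p: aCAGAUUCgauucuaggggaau
miR-196a-5p: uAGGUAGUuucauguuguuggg
miR-196b-5p: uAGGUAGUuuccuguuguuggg
miR-615-3p: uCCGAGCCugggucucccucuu
miR-196a-5p and miR-196b-5p carry the same seed and differ by the substitution A12C, with positions counted from 1 at the 5′ end of miR-196a-5p. No other miRNA of the count table with a RefSeq sequence shared a seed with miR-10a-3p, miR-10b-3p or miR-615-3p. The sources used here do not give the number of mismatches allowed when reads were assigned, so the division of reads between miR-196a-5p and miR-196b-5p, and between the paralogs miR-10a and miR-10b, is uncertain.

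In GENCODE 29 (GRCh38), each hairpin lies on the same strand as the HOX gene around it. MIR10A (chr17:48579838-48579947, minus strand) lies in an intron of HOXB3 and overlaps an untranslated exon of 1 HOXB4 transcript. MIR10B (chr2:176150303-176150412, plus strand) lies in an intron of HOXD3. miR-196a-5p has 2 genes, MIR196A1 in an intron of HOXB7 (chr17:48632490-48632559, minus strand) and MIR196A2 in an intron of HOXC6 (chr12:53991738-53991847, plus strand), so its reads cannot be given to 1 cluster. MIR196B (chr7:27169480-27169563, minus strand) lies within HOXA9, in an exon of 1 of 3 transcripts there, and opposite exons of the antisense gene HOXA10-AS. MIR615 (chr12:54033950-54034045, plus strand) lies in introns of HOXC4 and HOXC5.

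The libraries held between 9019266 and 11338580 counts. The miRNAs fixed as typical of this line (miR-21-5p, miR-100-5p, miR-221-3p and miR-222-3p) together made up 607184 to 706284 CPM of all counts (the count divided by the total and put on a common scale), against 93.0 to 170 for 7 epithelial miRNAs. Control library 3 differed from the other controls in 8 miRNAs of pluripotent stem cells, which summed to 422 CPM in it and to 278 to 288 CPM in the RARαS77A libraries, but to 0.185 and 0.0882 CPM in control libraries 1 and 2. Muscle miRNAs were high in control library 1 (91.5 CPM, against 2.65 to 5.10 in the other libraries) and the endocrine miRNA miR-375-3p in control library 2 (76.7 CPM, against 1.76 to 5.99). The part of these miRNAs in the results below was not tested, and values without each library are given where a call rests on it. The 4 miRNAs typical of blood summed to 113 to 283 reads per library. Of the 2 miRNAs listed as neuronal, miR-124-3p had no row in the count table. The other, miR-9-5p, was called higher in RARαS77A cells (108 to 147 CPM with TMM factors in control against 231 to 297 CPM, n = 3 each, edgeR log2 fold change 1.02, adjusted p = 0.00171). It moved in the same direction as miR-10a-5p, and its part in that result was not tested.

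A single arm dominated the HOX-cluster miRNAs. By raw count, miR-10a-5p had 29619 to 38899 reads per library, miR-10a-3p 320 to 956, miR-10b-5p 56 to 203 and miR-615-3p 24 to 70. miR-196a-5p had 1 to 10 reads, miR-196b-5p 0 to 5 and miR-10b-3p 0 or 1. Over all libraries the ranges of miR-10b-5p and miR-615-3p touched, but within each of the 6 libraries miR-10b-5p had more reads. miR-196a-5p was above miR-196b-5p in 3 libraries and below it in the other 3, so this pair of neighbours was not separated beyond the spread. Among all miRNAs, miR-10a-5p ranked 31 to 34 by count in the control libraries and 22 or 23 in the RARαS77A libraries. A count of 0 allows up to 3 reads, which is 0.265 to 0.333 CPM of all counts depending on the library, for counting error only.

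**Figure D1:**
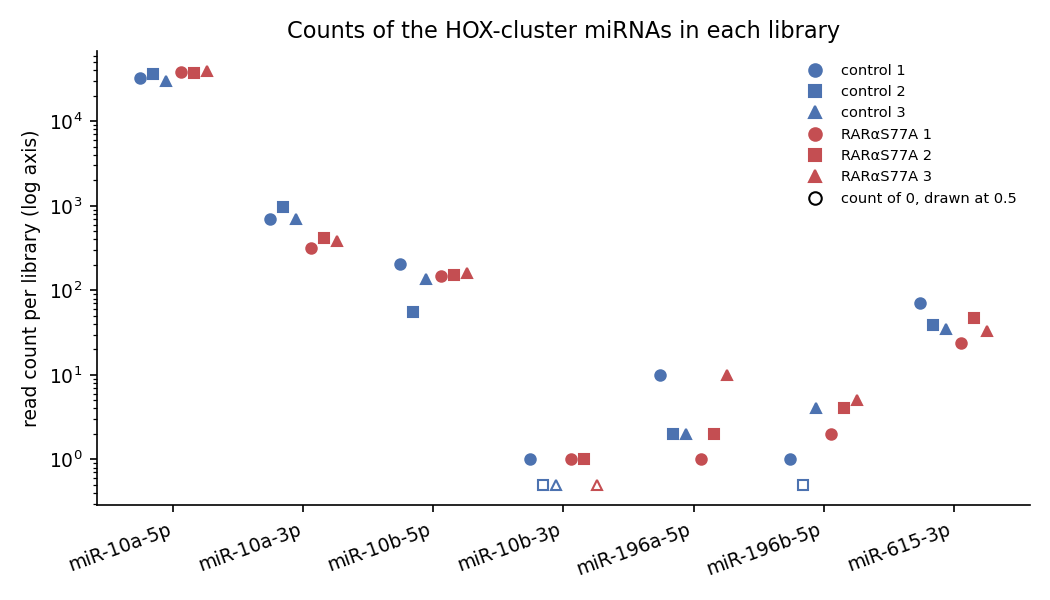
Raw read counts of the 7 HOX-cluster miRNAs with a row in the table, on a log axis, for each control (blue) and RARαS77A (red) library, with open symbols for counts of 0. miR-10a-5p lies between 29619 and 38899 reads in every library, while miR-10b-3p has at most 1 read and miR-196a-5p at most 10.

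To ask whether these miRNAs differ between control and RARαS77A cells, edgeR's quasi-likelihood test was run on the counts of all 506 miRNAs after TMM scaling, and a Benjamini-Hochberg adjusted p under 0.05 counted as a call. Of the 4 tested, miR-10a-5p was called higher, miR-10a-3p was called lower, and miR-10b-5p and miR-615-3p were not called. Calls were common in this comparison. Of all miRNAs tested, 44.5% were called, 23.3% higher and 21.1% lower, and in 58.1% the groups did not overlap with TMM factors, as in 3 of the 4 members (miR-10a-5p, miR-10a-3p and miR-10b-5p). The median log2 fold change of all miRNAs was 0.06. Because counts are relative, scaling moved this median to -0.51 with total counts and to 0.27 with upper quartile scaling, and every fold change moved with it.

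miR-10a-5p, the guide arm of the HOXB hairpin, was the most abundant member. It had 2614, 2446 and 2706 CPM (with TMM factors) in control libraries 1 to 3 and 4806, 4439 and 4683 CPM in RARαS77A libraries 1 to 3. All RARαS77A libraries lay above all controls, and the groups were far apart relative to their spread. The mean was 2589 ± 132 CPM in control and rose 1.79-fold, to 4643 ± 187 CPM, in RARαS77A cells (SD, n = 3 each). On the log2 scale the fold change was 0.84 (standard error 0.080, 95% interval 0.66 to 1.03, edgeR adjusted p = 0.000249), rank 105 from the top among the 506 log2 fold changes. As CPM of all counts, without TMM factors, the values were 3017, 3174 and 3284 in control and 3897, 3631 and 3885 in RARαS77A libraries, which also did not overlap. With total counts as the scaling the log2 fold change was 0.27 (adjusted p = 0.0257, edgeR), against 0.84 with TMM, and still called. Its distance from the median of all miRNAs was 0.78 to 0.79 under each scaling, which follows by construction, since a scaling shifts all miRNAs together, and is no sign of stability. Without control library 3, which holds the stem cell miRNAs, the log2 fold change with TMM scaling was 0.83.

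miR-10a-3p, the passenger arm of the same hairpin, went the other way. It had 56.5, 65.0 and 63.9 CPM (with TMM factors) in control libraries 1 to 3 and 40.7, 49.2 and 46.3 CPM in RARαS77A libraries 1 to 3. The highest RARαS77A library lay below the lowest control library. The mean was 61.8 ± 4.65 CPM in control and fell to 45.4 ± 4.32 CPM in RARαS77A cells (SD, n = 3 each). By edgeR this was a log2 fold change of -0.44 (95% interval -0.79 to -0.09, standard error 0.15, adjusted p = 0.0452). This call was close to the limit. Without control library 1 (log2 fold change -0.52, adjusted p = 0.0561), control library 2 (-0.38, 0.0955) or RARαS77A library 1 (-0.44, 0.0585), 2 (-0.48, 0.0599) or 3 (-0.46, 0.0520), edgeR no longer called it, nor under upper quartile scaling (-0.24, 0.299) or with the batch term described below (-0.49, 0.118). Without control library 3 the call was kept (-0.48, 0.0466). In raw reads the difference was larger, with 704, 956 and 700 reads in control and 320, 413 and 385 in RARαS77A libraries from similar totals, and with total-count scaling the log2 fold change was -1.02 (adjusted p = 0.00256, edgeR). Its distance from the median of all miRNAs, which a scaling leaves nearly fixed by construction, was -0.52 to -0.51.

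The ratio of the 2 arms within a library does not depend on scaling. For miR-10a, the 5p count was 46.3, 37.6 and 42.3 times the 3p count in control libraries 1 to 3, and 118, 90.3 and 101 times in RARαS77A libraries 1 to 3. The lowest RARαS77A ratio was well above the highest control ratio. The mean ratio went from 42.1 ± 4.33 to 103 ± 14.0 (SD, n = 3 each; two-sided exact permutation p = 0.1, the lowest possible with 3 libraries against 3). In a limma fit over all 117 arm pairs with a mean count of at least 10 in both arms, the log2 ratio of miR-10a rose by 1.29 (standard error 0.14, 95% interval 0.96 to 1.62, adjusted p = 0.000105), which is 2.44-fold. Without single libraries the change was between 1.19 and 1.38, and it was called each time.

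**Figure D2:**
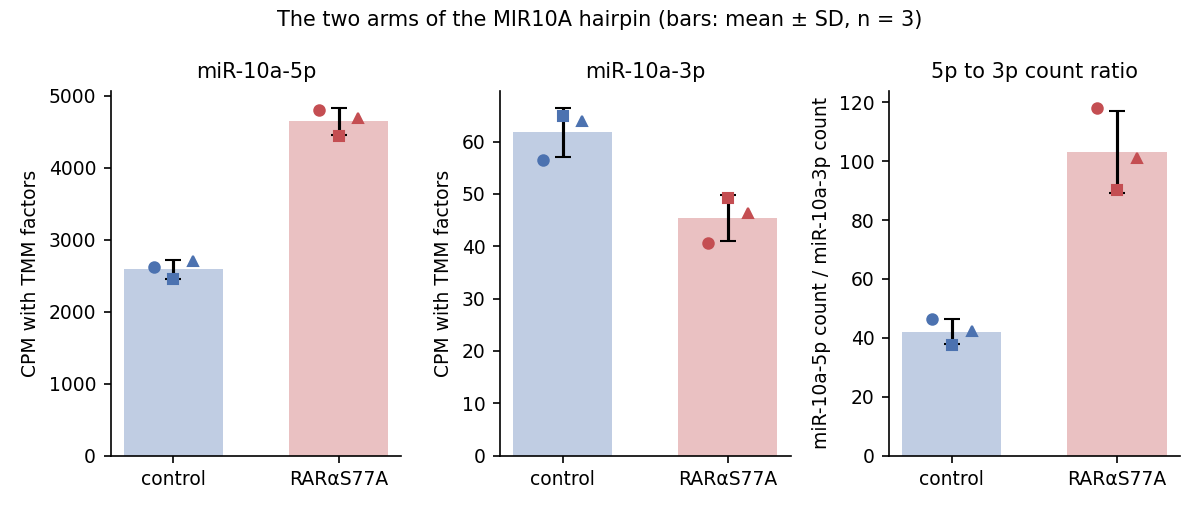
miR-10a-5p and miR-10a-3p in CPM with TMM factors, and the ratio of their raw counts, in control (blue) and RARαS77A (red) libraries, with bars for the mean, error bars for the SD (n = 3) and a symbol per library. The 5p arm is higher, the 3p arm lower and the ratio higher (103 against 42.1) in RARαS77A cells, with no overlap of the libraries in any of the 3 panels.

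A shift toward the more abundant arm was common in these libraries. Of the 117 arm pairs, 53.8% changed their ratio with an adjusted p under 0.05 (limma), 41.0% toward the more abundant arm, and the median change toward that arm was 0.36 on the log2 scale (interquartile range -0.19 to 1.14). miR-10a ranked 23 of 117 in this direction. In 10 pairs, 8.55% of all, the more abundant arm was called higher and the other arm lower by edgeR. miR-10a was one of them, next to miR-21, miR-100, miR-182, miR-224, miR-29c, miR-361, miR-378a, miR-425 and miR-455. These arm calls are those with TMM scaling. The place of miR-10a among them rests on the call of its 3p arm, which was kept in 6 of 14 alternatives. A batch term was also tried that places control library 3 with the RARαS77A libraries, leaving 1 control in that batch. No label gives such a batch, and the split matches the stem cell miRNAs seen in these same counts. With this term the change of the miR-10a ratio was 1.28 on the log2 scale.

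**Figure D3:**
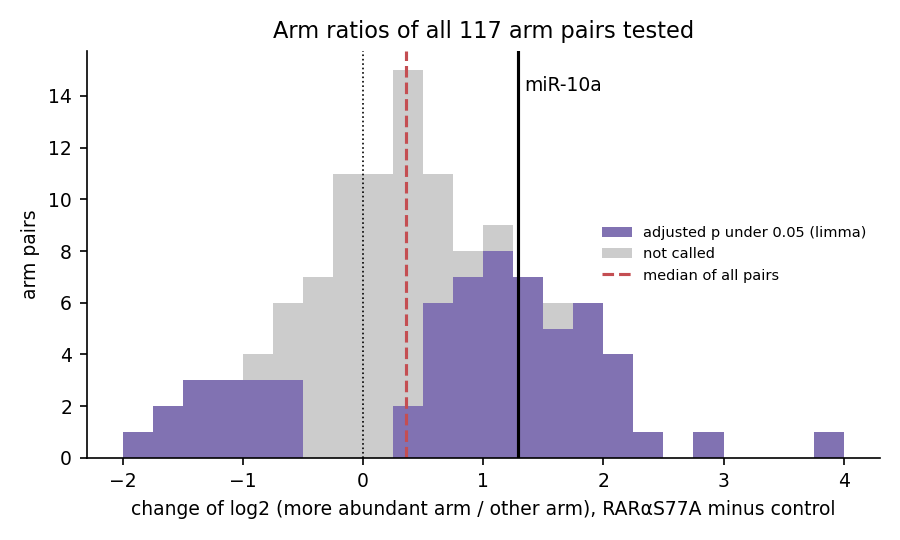
Histogram of the change of the log2 arm ratio toward the more abundant arm, RARαS77A minus control, for the 117 arm pairs tested, with pairs called by limma in purple and others in grey. The dashed line is the median of all pairs (0.36) and the solid line is miR-10a (1.29), which lies in the upper part of a distribution shifted to the right of 0.

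miR-10b, the HOXD paralog of miR-10a, was far less abundant. miR-10b-5p had 16.3, 3.81 and 12.6 CPM (with TMM factors) in control libraries 1 to 3 and 18.6, 17.9 and 19.4 CPM in RARαS77A libraries 1 to 3. Control library 2 was far below the other controls, and the RARαS77A libraries lay together just above control library 1. The mean was 10.9 ± 6.41 in control and 18.6 ± 0.761 CPM in RARαS77A cells (SD, n = 3 each). edgeR did not call its log2 fold change of 0.77 (95% interval -0.31 to 1.86, standard error 0.46, adjusted p = 0.211). Without control library 2 it was 0.39 (adjusted p = 0.188, edgeR), and without control library 1 it was 1.22 (0.0550). The groups did not overlap with TMM factors, but as CPM of all counts control library 1 (18.8) was above all RARαS77A libraries (14.6 to 16.1). Control library 2 was also lowest in the liver miRNA miR-122-5p, with 99 reads against 355 to 527 in the other libraries. Lowest there as well were the epithelial miR-203a-3p (10 reads) and miR-205-5p (1 read) and the muscle miRNA miR-1-3p (28 reads). The other epithelial miRNAs were not lowest in that library. Among the other muscle miRNAs, miR-133a-3p was not lowest there (2 reads, against 0 in RARαS77A library 2). The remaining muscle miRNAs, miR-133b and miR-206, had 0 reads there, as they did in other libraries. The endocrine miR-375-3p (870 reads) and the blood miRNA miR-451a (217 reads) were highest in it. The part of RNA from liver or these other cell types in the level of miR-10b-5p was not tested. Of miR-10b-3p there were 3 reads in all libraries together, against 854 of miR-10b-5p, and its arm ratio was not tested.

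**Figure D4:**
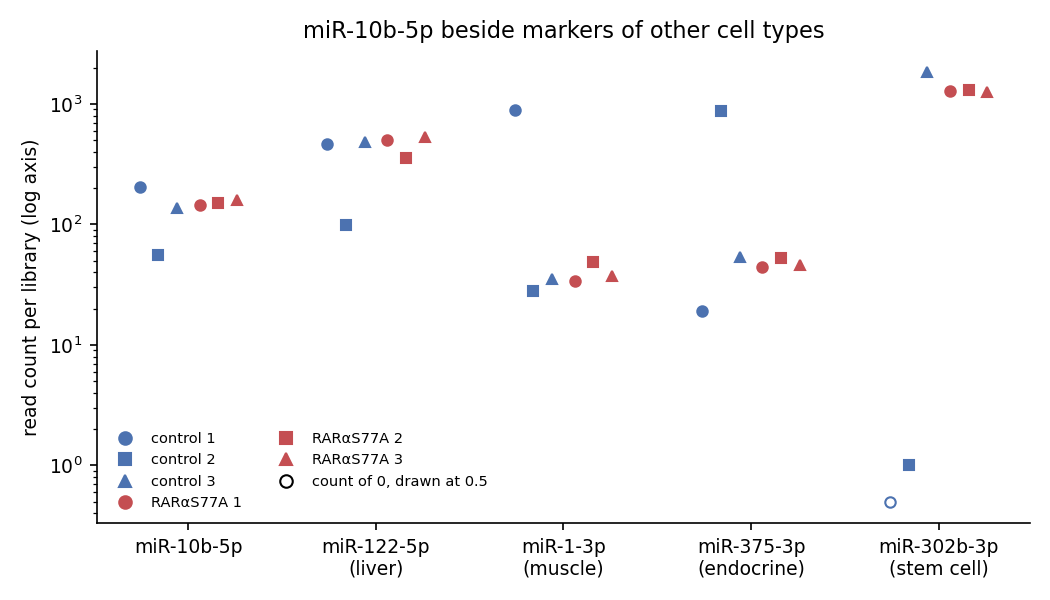
Raw read counts (log axis) of miR-10b-5p and of 4 miRNAs typical of other cell types in each control (blue) and RARαS77A (red) library, with open symbols for counts of 0. Control library 2 is lowest for miR-10b-5p (56 reads), miR-122-5p (99 reads) and miR-1-3p (28 reads) and highest for miR-375-3p (870 reads). The stem cell miRNA miR-302b-3p has 0 or 1 read in control libraries 1 and 2 and 1267 to 1833 in the other libraries.

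Between paralogs, the balance of miR-10a-5p and miR-10b-5p was similar in the means of both groups. miR-10b-5p made up 0.619%, 0.155% and 0.464% of their summed reads in control libraries 1 to 3, and 0.385%, 0.401% and 0.412% in RARαS77A libraries. The controls scattered on both sides of the RARαS77A libraries. The means were 0.413% ± 0.236 and 0.399% ± 0.0137 (SD, n = 3 each; exact permutation test, two-sided, p = 1). The difference of -0.013 percentage points went to -0.142 without control library 2, to 0.0897 without control library 1 and to 0.012 without control library 3, so its size and sign rest on which controls are used.

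miR-615-3p, the HOXC member, had 5.61, 2.65 and 3.20 CPM (with TMM factors) in control libraries 1 to 3 and 3.05, 5.60 and 3.97 CPM in RARαS77A libraries 1 to 3. The groups overlapped over almost their whole range. By edgeR the log2 fold change was 0.15 (95% interval -0.66 to 0.95, standard error 0.34, adjusted p = 0.735), with means of 3.82 ± 1.58 and 4.21 ± 1.29 CPM (SD, n = 3 each). Its sign was not fixed, since total-count scaling gave -0.41 (adjusted p = 0.307, edgeR), and TMM scaling gave -0.06 without control library 2, -0.02 without control library 3 and -0.10 without RARαS77A library 2. The interval covers changes of over 0.6 on the log2 scale in either direction, so differences of that size could not be told from the spread between these libraries.

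The miR-196 members were close to the limit of detection. miR-196a-5p had 10, 2 and 2 reads in control and 1, 2 and 10 reads in RARαS77A libraries, so that 1 library of each group held most of its reads. miR-196b-5p, the HOXA member, had 1, 0 and 4 reads in control and 2, 4 and 5 reads in RARαS77A libraries. Both overlapped between groups, with two-sided exact permutation p of 0.7 and 0.2 on CPM with TMM factors (n = 3 each). Neither passed the filter. With all 1582 miRNAs tested, edgeR gave adjusted p of 0.821 and 0.473, and 0.728 for miR-10b-3p. At 27 and 16 reads over all libraries, no difference was detected, and how large a difference this depth could show was not tested.

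By cluster, the HOXB hairpin miR-10a supplied nearly all reads of these miRNAs. Its share was 99.2%, 99.7% and 99.4% in control libraries and 99.5% in each RARαS77A library. The controls lay on both sides of the RARαS77A libraries. The mean share was 99.4% ± 0.294 and 99.5% ± 0.0460 (SD, n = 3 each; exact permutation test, two-sided, p = 0.7). The difference of 0.058 percentage points was -0.083 without control library 1 and 0.210 without control library 2. The HOXD share (miR-10b) averaged 0.404% and 0.397%, the HOXC share (miR-615-3p) 0.143% and 0.0901%, and the HOXA share (miR-196b-5p) 0.00536% and 0.00948% in control and RARαS77A cells. miR-196a-5p, of HOXB or HOXC, averaged 0.0139% and 0.0111%. Among the 7 shares compared, the exact permutation p, adjusted by Benjamini-Hochberg, lay between 0.875 and 1, in a design whose smallest raw p is 0.1.

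Between the outermost HOX genes, the annotation also places MIR3185 (HOXB) and MIR7704 (HOXD), and no values for MIR3185 are given here. The count table held miR-7704, whose mature RefSeq sequence is shown because it overlaps a coding exon.
miR-7704: cGGGGUCGgcggcgacgug
Its gene MIR7704 (chr2:176188843-176188901, plus strand, GENCODE 29 on GRCh38) lies in the HOXD cluster, within a coding exon of HOXD1 and opposite an exon of the antisense RNA gene HAGLR. How strand was handled is not stated in the sources used here, so reads of MIR7704, HOXD1 and HAGLR cannot be told apart. Of the bases of miR-7704, 84.2% are G or C, a share reached by 15 of the 1342 miRNAs of the count table with a RefSeq sequence. Whether any of its reads came from similar sequences in other RNAs was not tested. There were 5, 8 and 9 reads in control libraries 1 to 3 and 105, 46 and 88 reads in RARαS77A libraries 1 to 3. All RARαS77A libraries were several times above every control. With TMM factors the libraries ranged from 0.401 to 0.822 CPM in control and from 5.48 to 13.4 CPM in RARαS77A cells (n = 3 each). The log2 fold change of 4.05 (edgeR standard error 0.42, adjusted p = 0.000334) was the top one among the 506 miRNAs tested. However, its control counts were all under the filter's minimum count of 10, and it passed the filter through the RARαS77A libraries. Its direction and rank are therefore partly set by that filter. Each of the 14 alternatives called miR-7704, at 3.47 to 4.37, and the run without a filter gave 3.87. All the others used the same filter, and all drew on these same libraries, so their calls are no separate support.

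**Figure D5:**
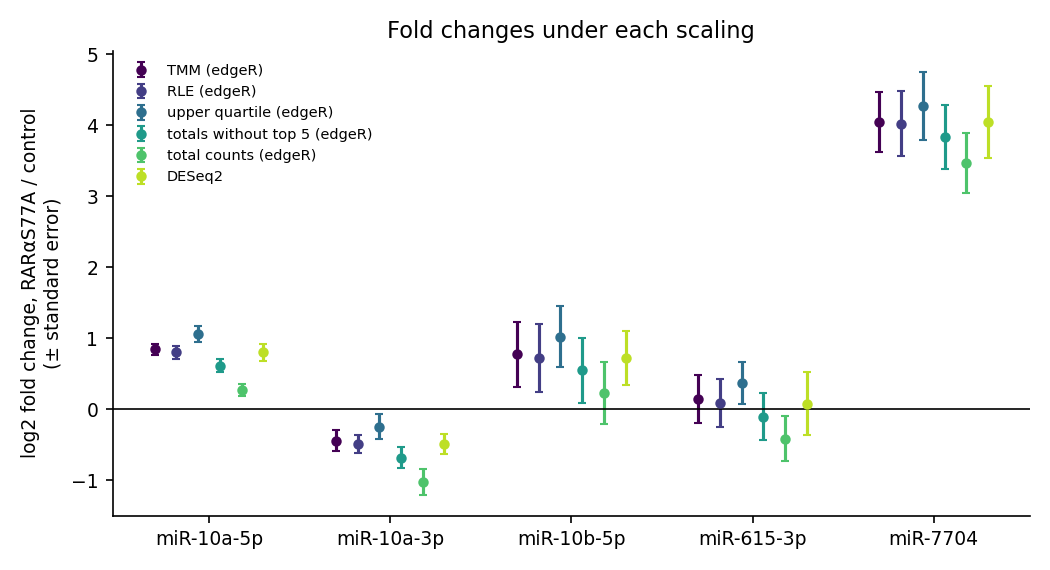
Log2 fold change of RARαS77A over control (points) with its standard error (bars) for the 4 tested HOX-cluster miRNAs and miR-7704 under 5 scalings in edgeR and with DESeq2. miR-10a-5p and miR-7704 stay above 0 and miR-10a-3p stays below 0 under each, whereas miR-615-3p crosses 0.

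miR-10a belongs by sequence to an old family with miR-99 and miR-100, which are encoded outside the HOX clusters and are shown here to set their seeds beside that of miR-10a-5p.
miR-100-5p: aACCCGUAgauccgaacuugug
miR-99a-5p: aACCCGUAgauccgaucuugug
miR-99b-5p: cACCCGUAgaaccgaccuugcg
All 3 share 1 seed that differs from that of miR-10a-5p. The run GUAGAUCCGAA of 11 bases, which starts at base 7 of miR-10a-5p and at base 6 of miR-100-5p, is common to both. All 3 of 3 were called higher by edgeR, with log2 fold changes of 1.01 for miR-100-5p, 0.98 for miR-99a-5p and 0.63 for miR-99b-5p, beside 0.84 for miR-10a-5p and the 23.3% of all miRNAs called higher. Their median was 0.98, and with total-count scaling 1 of the 3 was called higher, beside 10.1% of all miRNAs.

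The seed of miR-196a-5p and miR-196b-5p also occurs in let-7a-5p, shifted by 1 base, as bases 3 to 9 of the sequence below, so that the seeds are not the same.
let-7a-5p: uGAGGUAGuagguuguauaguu
let-7a-5p, of an abundant tumour-suppressor family, was among 12 miRNAs listed as linked to retinoid signaling, with no direction set. The tests covered 10 of them. Of these 10, 2 were called higher and 6 lower, beside 23.3% and 21.1% of all miRNAs, and the median log2 fold change was -0.54 against 0.06 for all miRNAs. By abundance, miR-21-5p, an oncogenic miRNA, was called higher (log2 fold change 0.65, adjusted p = 0.0482, edgeR), let-7a-5p was not called (-0.21, 0.352), and miR-16-5p, a repressor of BCL2 and cyclins, was called lower (-0.68, 0.00171), as was let-7d-5p (-0.40, 0.0311). With total-count scaling, edgeR called 0 of them higher, also 0 at an unadjusted p under 0.05, and 8 lower, where 10.1% of all miRNAs were called higher and 42.1% lower under this scaling, whereas DESeq2 called 2 higher and 6 lower. Without RARαS77A library 1, 2 or 3, edgeR called 1 higher.

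The miRNAs whose pattern was most like that of miR-10a-5p were miR-192-5p, miR-659-5p and miR-3690. Likeness was Pearson's r of log2(CPM + 1) over the 6 libraries, at 0.994, 0.993 and 0.991, and is a description of libraries that share a split into 2 groups. Their log2 fold changes were 0.59, 2.27 and 2.09, beside 0.84 for miR-10a-5p.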

How the data were processed

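Small RNA of MDA-MB-231 cells was sequenced in 3 control and 3 RARαS77A libraries. A single table deposited by the authors gave the count of reads per library, not normalized, for 1582 miRNAs, of which 84 are predicted ones. The TPM columns deposited beside the counts equal CPM of all counts, without a length term, and were not used. The submitters' processing notes name Bowtie. The sources used here do not give its version, settings, reference or build. Counts were tested with edgeR 4.0.16 in R 4.3.3 (TMM, filterByExpr with a minimum count of 10, quasi-likelihood test, no covariate, adjusted p under 0.05 by Benjamini-Hochberg over all tested miRNAs). Arm ratios, log2 of counts plus 0.5, were fitted with limma 3.58.1, with a trend on the count of the less abundant arm. Shares and single values were compared by exact permutation tests, two-sided. Alternatives used DESeq2 1.42.0, other scalings, no filter, a batch term, a replicate block and each library left out. Coordinates are from GENCODE 29 and sequences from RefSeq. Scripts were tested on simulated data.

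The members, the lists and the tests were chosen with earlier results of these data known. Named miRNAs were the 8 members, at most 4 of each list by abundance, other miRNAs of the HOX clusters, the 3 miRNAs most like miR-10a-5p, and any sharing a seed with a member. The other miRNAs with opposite calls on their arms were named after their values were seen. Intervals for fold changes are 95% intervals of the fit. Totals of 9019266 to 11338580 counts per library set the depth.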

Additional observations from a re-analysis of the deposited data

How the results depend on the processing

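miR-10a-5p kept its higher call under all 14 alternatives (log2 fold changes 0.27 to 1.06, 0.75 to 0.90 without single libraries), and the change of the miR-10a arm ratio kept its call under all 10 (1.19 to 1.38). miR-10b-5p was called under none of 14 (0.23 to 1.22, lowest adjusted p 0.0550). miR-10a-3p stayed lower under all 14 (-1.02 to -0.24) but kept its call in 6, so the number of members called lower was 0 under upper quartile scaling, with the replicate block and with the batch term, and between 0 and 1 without single libraries. At an unadjusted p under 0.05, edgeR gave 0 under upper quartile scaling and 1 in each other such case, and DESeq2 called 1. miR-615-3p, not called anywhere, changed sign to -0.41 with total counts, -0.10 with the 5 top miRNAs left out of the totals and -0.055 without a filter, and lay between -0.10 and 0.52 without single libraries. The number of retinoid-linked miRNAs called higher went from 2 to 1 with RLE factors, with the 5 top miRNAs left out, without a filter, with the replicate block and with the batch term, to 0 with total counts, and lay between 1 and 2 without single libraries. Of the relatives of miR-10, 1 was called higher with total counts, against 3. The cause of these moves was not tested, apart from the shift of all fold changes that a scaling makes by construction.

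Replicate numbers 1 to 3 occur in both groups, but deviations of same-numbered libraries correlated at only 0.0386, 0.0996 and 0.0247, and the numbers were not taken as a pairing. With the replicate block, miR-10a-5p was at 0.84 (adjusted p = 0.00186), miR-10a-3p at -0.45 (0.0692), and edgeR called 107 miRNAs higher and 94 lower, against 118 and 107 without it. The batch term, which no label gives and which compares the RARαS77A libraries with 1 control, gave 0.78 for miR-10a-5p. No library pair of a group differed by less than sampling noise. Depth limits miR-196a-5p, miR-196b-5p and miR-10b-3p, with at most 10 reads in any library.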
